A study of Mus musculus with 6 samples.

Results

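The response of the aortic transcriptome to the loss of 1 copy of Jag1 was measured here against what an additive response would give. For each gene, the mean of the heterozygous libraries on the log2(scaled count + 1) scale was set against the midpoint of the wildtype mean and the knockout mean, and the difference is called the deviation. A deviation of 0 places the heterozygous group at the midpoint, and a gene lies outside both other groups where the heterozygous level is above both or below both. All 6 libraries of the series entered. Of 37309 genes in the deposited table, 15116 on the autosomes and the mitochondrial genome had a scaled count of 10 or more in 2 or more libraries and were tested, and 665 genes of chromosomes X and Y that passed the same minimum were left out.

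Vascular smooth muscle of the mouse descending aorta, taken at embryonic day 14.5, gave 3 groups of 2 libraries. The wildtype group was labelled JAG1 lox/lox without Cre, the heterozygous group lox/+ with Cre, and the knockout group lox/lox with Cre. Cre was therefore absent from wildtype alone, and an unfloxed allele was present in the heterozygous group alone, so that neither can be told apart from Jag1 dose in the deviation. The labels do not give the promoter that drove Cre, the exons deleted, the sex of the embryos or whether the libraries of a group came from separate animals, so p values here reflect the scatter of these libraries alone, which may be technical. The libraries held 17323962 to 28123670 reads in genes. Of 41 contractile smooth muscle genes, 40 had 10 or more scaled counts in 2 or more libraries, and their summed level was 576136 to 598587 in wildtype, 529055 to 533977 in heterozygous and 462682 to 497730 in knockout. Erythroid markers summed to 13.2 to 28.1 in every library, and 6 of their 12 genes were at 0 throughout. Transcripts of the Y chromosome were nearly absent from the knockout libraries, with Ddx3y at 1102 and 1207 in wildtype, 973 and 999 in heterozygous and 5.44 and 12.2 in knockout. The sex of the embryos is not labelled and cannot be told apart from genotype here.

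Jag1 is a membrane-bound ligand that activates Notch receptors on neighbouring cells, signals which smooth muscle cells of the arterial wall both present and receive as they form concentric layers. Notch signals are sensitive to gene dose, and in humans the loss of a single JAG1 copy causes Alagille syndrome, with defects of the liver ducts, the heart and the arteries. A dosage series in which the heterozygous state is not intermediate is called non-additive. Macrophages seed the embryonic aortic wall from the yolk sac and the fetal liver, and they sense viral nucleic acid and interferon through a shared programme of antiviral genes.

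Jag1 (ENSMUSG00000027276, chromosome 2), the deleted gene, had scaled counts of 1965 and 1885 in wildtype, 492 and 584 in heterozygous and 19.9 and 35.4 in knockout. The 3 groups did not overlap and stood in the order of the labels. On the log2 scale the heterozygous mean was nearer wildtype than knockout, with a deviation of 1.22 ± 0.20 (SE; limma adjusted p = 0.00371). Jag1 was thus inside the range of the other groups. Set against the arithmetic midpoint of the scaled counts, the same libraries gave -0.86 on the log2 scale, so the direction of the Jag1 deviation depends on the scale. Its call was lost without heterozygous replicate 1 (adjusted p = 0.0504) or replicate 2 (0.101).

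Across the 15116 genes the median deviation was -0.00 on the log2 scale, with quartiles of -0.13 and 0.15. The deviation passed limma's test at an adjusted p under 0.05 in 1447 genes (9.57%), of which 1039 (6.87%) were above the midpoint and 408 (2.70%) below it, and 3082 genes had an unadjusted p under 0.05. In 1314 genes (8.69%) the deviation passed and both heterozygous libraries lay outside all 4 others, 976 (6.46%) above and 338 (2.24%) below, while in 133 of the 1447 the heterozygous libraries did not both lie above, or both below, all others. The stricter criterion, a heterozygous group that differed from wildtype and from knockout in the same direction with both adjusted p under 0.05, was met by 607 genes (4.02%), 496 above both (3.28%) and 111 below both (0.734%). All 607 also passed the deviation test.

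Genes above both other groups were thus more numerous than genes below both and, on the log2 scale, lay further from the midpoint. That midpoint lies below the arithmetic one where wildtype and knockout differ, and the part of the scale in these distances was not tested. Wildtype and knockout did not differ past the threshold in 215 of the 496 genes above both and in 89 of the 111 below both. The median deviation was 1.31 among the 496 and -0.82 among the 111, which the criterion itself pushes away from 0, and 329 and 43 of them were at least 2-fold off the midpoint. Without any test, the heterozygous mean was above both other means in 4839 genes (32.0%) and below both in 4756 (31.5%), nearly equal shares.

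The counts rest on few libraries. Without heterozygous replicate 1 or 2, 431 and 430 genes were called above the midpoint and 87 and 95 below it. Without knockout replicate 1 or 2, whose pair scattered most, the counts were 1826 and 2233 above and 1123 and 1981 below. Without wildtype replicate 1 or 2 they were 710 and 698 above and 153 and 168 below. Genes above both groups numbered 111 and 124 without a heterozygous library, 167 and 176 without a wildtype library, and 937 and 879 without a knockout library. Genes below both numbered 25 and 29, 28 and 35, and 305 and 440 in the same order. More genes were above than below in each of the 6. Of the 607 genes, 311 met the criterion in all 11 alternatives that used every library, and 113 of these, 94 above and 19 below, also met it in all 6 that left one out. A named gene given with no remark kept its deviation call in every alternative that was run.

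**Figure D1:**
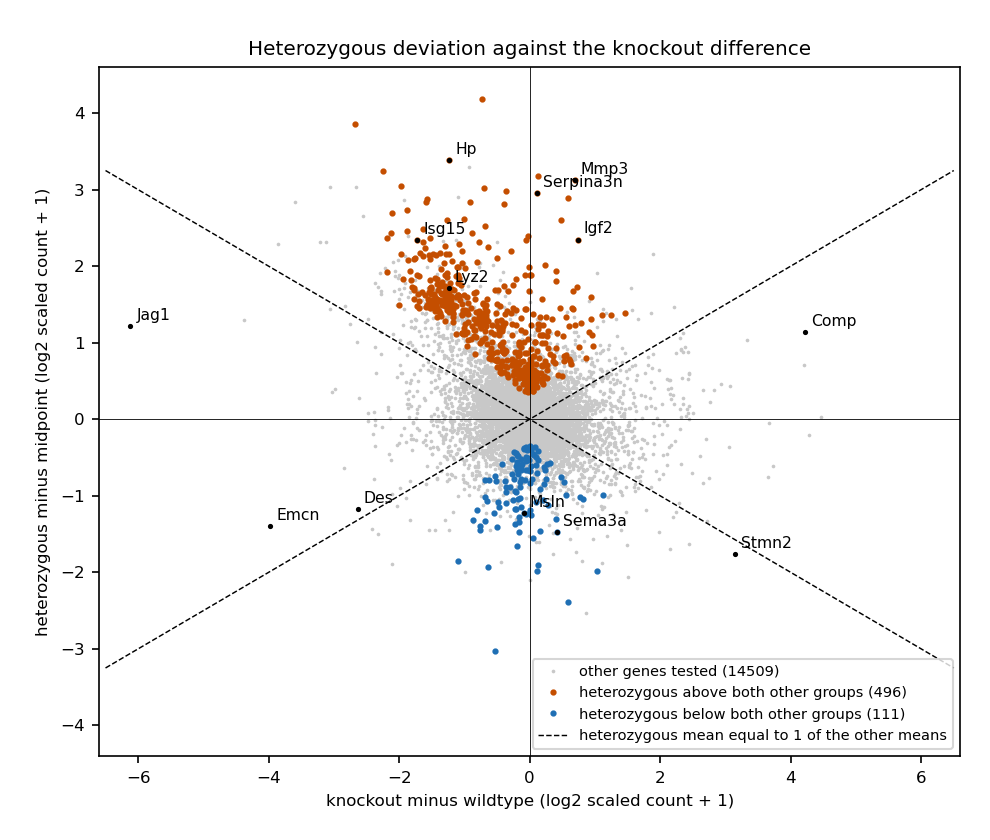
Each point is 1 of the 15116 genes, with the knockout minus wildtype difference on the x axis and the heterozygous deviation from the midpoint on the y axis, both in log2 units of scaled count + 1. Dashed lines mark where the heterozygous mean equals 1 of the other means, so points in the upper and lower wedges are outside both. The 496 genes above both groups (orange) crowd to the left, where knockout is below wildtype, and the 111 below both (blue) sit near 0 on the x axis.

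The deviation and the knockout difference were related. Of the 1902 genes (12.6%) that differed between knockout and wildtype, 733 (38.5%) also passed the deviation test, against 714 of the 13214 others (5.40%). The estimates of the 2 contrasts are orthogonal, but both use the same spread per gene. Among 1086 genes lower in knockout, the deviation passed in 554, and in 444 of these both heterozygous libraries were above all others, so that the order was knockout, wildtype, heterozygous. In 42 both were below all others, and in 32 and 36 they did neither and the mean lay on the wildtype and the knockout side of the midpoint. Among 816 genes higher in knockout, 179 passed, with both libraries below all others in 55, above all others in 59, and neither in 34 on the wildtype side and 31 on the knockout side. Of the 496 genes above both groups, 255 were lower in knockout than in wildtype, 26 were higher and 215 did not differ. Of the 111 below both, 14 were lower, 8 were higher and 89 did not differ.

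The 11 genes described here from the highest deviations among abundant genes whose heterozygous libraries lay outside the other 4 ran from 2.87 to 3.38. They were the chemokine genes Ccl6, Ccl5 and Cxcl9, the acute phase and complement genes Hp, Lbp, Serpina3n, C3 and C4b, the matrix protease Mmp3, and the antiviral enzymes Oas2 and Oas3. The values chose these genes, so they are given as a description. Abundant means a mean of 50 or more in the highest group, which was the heterozygous group in all 11. Ccl5, Cxcl9, Oas2 and Oas3 did not have 10 or more scaled counts in all 6 libraries, so their deviations rest partly on low values. Hp, which encodes the haemoglobin-binding plasma protein haptoglobin, measured 93.7 and 98.3 in wildtype, 755 and 571 in heterozygous, and 45.3 and 35.4 in knockout, with a deviation of 3.38 ± 0.16 (adjusted p = 8.92e-06). Both heterozygous libraries were above both wildtype libraries, and knockout was lowest.

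In Serpina3n and Mmp3 wildtype and knockout lay closer together than in Hp. Serpina3n, a protease inhibitor of the acute phase response, measured 143 and 170 in wildtype, 1345 and 1199 in heterozygous and 169 and 170 in knockout (deviation 2.96 ± 0.11, adjusted p = 6.38e-06). Mmp3, or stromelysin, a secreted protease of the extracellular matrix, measured 108 and 134, then 1393 and 1286, then 159 and 237 (deviation 3.12 ± 0.17, adjusted p = 1.13e-05). The heterozygous libraries were far above all others in both genes, and Mmp3 was also higher in knockout than in wildtype (adjusted p = 0.0477). C3, the central complement component, had 141 and 135 in wildtype, 564 and 614 in heterozygous and 47.1 and 44 in knockout (deviation 2.87 ± 0.12). Its knockout libraries were lowest, as in Hp. Of the 11, 8 differed from both groups, and Cxcl9, Oas2 and Oas3 did not pass against wildtype (adjusted p = 0.05, 0.0569 and 0.0721). The deviation call on Oas3 was lost without heterozygous replicate 1 (adjusted p = 0.0831) or replicate 2 (0.0912). Serpina3n, C4b and the Oas genes have near-identical relatives in the mouse, and their counts are uncertain to that extent.

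**Figure D2:**
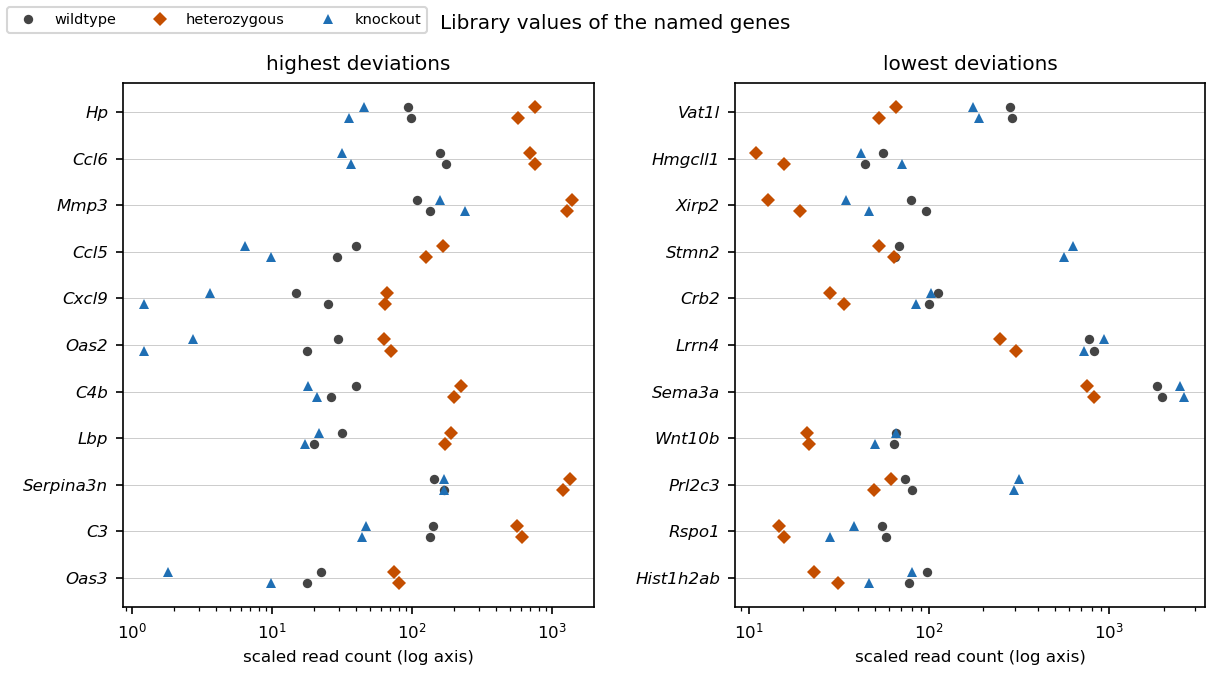
Scaled read counts (log x axis) of 11 genes with the highest and 11 with the lowest deviations, 1 marker per library, with circles for wildtype, diamonds for heterozygous and triangles for knockout. In the left panel the heterozygous libraries of Hp (755 and 571) lie right of all others, and in the right panel those of Vat1l (65.7 and 52.9) lie left of all others.

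Macrophage and leukocyte transcripts were high in the heterozygous libraries almost throughout the list. Of 32 listed genes in the table, 29 were tested. Of these, 28 were above the midpoint, 26 were above both other groups and none was below, beside 6.87% and 3.28% of all genes. This list and the others below were chosen with earlier results of these data known, so their shares are given as a description. The median deviation was 1.55, against -0.00 for all genes tested. The summed level of the list was 47433 and 48127 in wildtype, 95123 and 90208 in heterozygous, and 19345 and 18853 in knockout, and the groups did not overlap. None of the listed genes was at 0 in all libraries.

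Lyz2, the lysozyme of myeloid cells, carried much of this sum, with 15912 and 16930 in wildtype, 36822 and 33208 in heterozygous and 6734 and 7141 in knockout (deviation 1.71 ± 0.08, adjusted p = 6.41e-06). Csf1r, the receptor for the growth factor that macrophages need to survive, measured 2171 and 2084, then 3848 and 3849, then 1081 and 1003 (deviation 1.37 ± 0.08). Every heterozygous value was above every wildtype value, and every knockout value below. Mrc1, the mannose receptor of tissue-resident macrophages, measured 606 and 642, then 1786 and 1864, then 256 and 275 (deviation 2.16 ± 0.09), and Emr1, which encodes the F4/80 antigen, measured 769 and 781, then 2101 and 1974, then 280 and 347 (deviation 2.05 ± 0.10). Their heterozygous levels stood further above wildtype than those of Csf1r.

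Receptors for antibody and complement components followed the same order. Fcgr1, the high-affinity IgG receptor, had a deviation of 2.27 ± 0.17, Itgam, the integrin CD11b, of 1.77 ± 0.09, and the complement genes C1qa, C1qb and C1qc of 1.64 ± 0.16, 1.63 ± 0.12 and 1.67 ± 0.14. Ptprc, the CD45 antigen of all leukocytes, measured 395 and 437, then 657 and 707, then 114 and 170 (deviation 1.5 ± 0.15), and the lysosomal protease Ctss had a deviation of 1.47 ± 0.08. The chemokine receptor Cx3cr1 was the member that did not pass, with a deviation of 0.51. Pf4, made by megakaryocytes and some macrophages, and Aif1, a cytoskeletal protein of macrophages, passed the deviation test without differing from both groups. Calls on Pf4 and Aif1 were lost without heterozygous replicate 2 (adjusted p = 0.0967 and 0.0842), and that on Aif1 also without heterozygous replicate 1 (0.195) or wildtype replicate 2 (0.0564). In RNA of a whole sample, fewer cells of a type and less RNA per cell cannot be told apart. The counts of members above both groups were 10 and 15 without heterozygous replicate 1 and 2, and 15 and 16 without wildtype replicate 1 and 2.

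**Figure D3:**
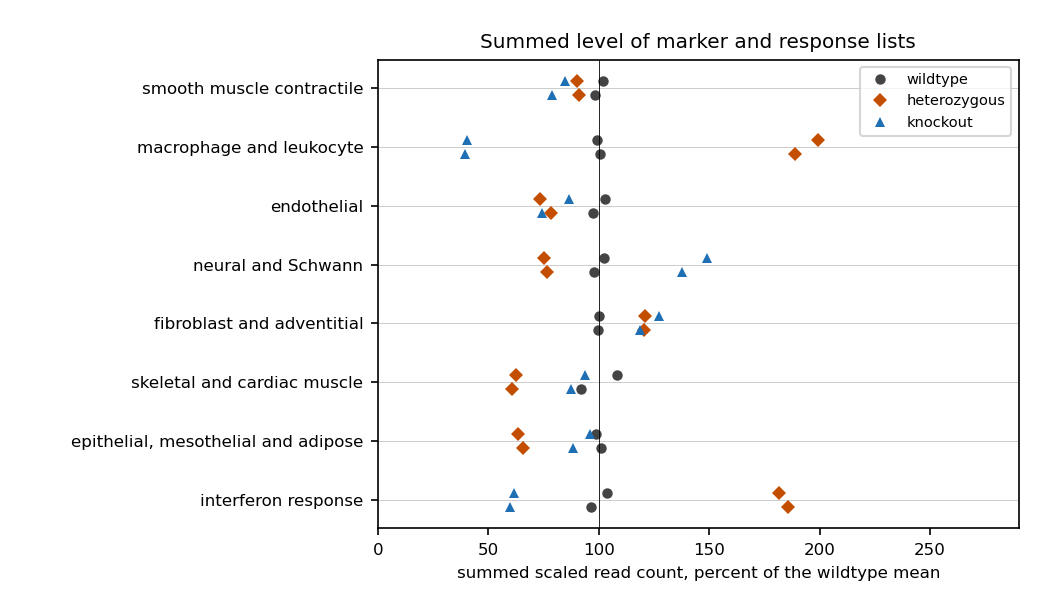
Summed scaled counts of marker and response lists in each library as a percent of the wildtype mean (x axis), with circles for wildtype, diamonds for heterozygous and triangles for knockout. The sums take in all chromosomes. The macrophage and the interferon response sums are highest in both heterozygous libraries and lowest in both knockout libraries, and the epithelial, mesothelial and adipose sum is lowest in the heterozygous libraries.

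Genes of the interferon response were high in the heterozygous libraries too. Of 35 tested, 29 were above the midpoint, 25 above both other groups and none below, beside 6.87% and 3.28% of all genes tested above. The median deviation was 1.78. Both heterozygous libraries were above all others in 34, beside 14.3% of all genes tested. Of the 35, 27 had 10 or more scaled counts in all 6 libraries, and in a fit of such genes alone 25 were above the midpoint. The list summed to 8723 and 8121 in wildtype, 15298 and 15620 in heterozygous, and 5198 and 5037 in knockout. The macrophage sum moved in the same order, and its part in the interferon values was not tested. Members above both groups numbered 10 and 8 without heterozygous replicate 1 and 2, and 13 and 11 without wildtype replicate 1 and 2.

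Among effectors, Ifit1, which binds foreign RNA caps, measured 163 and 142 in wildtype, 640 and 582 in heterozygous, and 88.8 and 75.8 in knockout (deviation 2.44 ± 0.13, adjusted p = 1.13e-05). Isg15, a ubiquitin-like modifier, measured 296 and 267, then 774 and 792, then 95.2 and 74.5 (deviation 2.34 ± 0.13). Heterozygous libraries were highest and knockout lowest in each. Oasl2, of the oligoadenylate synthetase family, measured 91.3 and 76.3, then 343 and 319, then 32.6 and 35.4 (deviation 2.61 ± 0.15), and Bst2, or tetherin, which holds budding viruses at the cell surface, measured 856 and 782, then 1787 and 1596, then 384 and 293 (deviation 1.69 ± 0.12). Regulators of the response were above both groups too. Stat2, a transcription factor activated by interferon receptors, had a deviation of 1.20 ± 0.09. Its partner Irf9 had 0.96 ± 0.09, and Irf7, which amplifies interferon production, had 1.89 ± 0.20.

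Usp18, which removes Isg15 from proteins, had a deviation of 2.17 ± 0.16, and the RNA sensors Ddx58 and Ifih1 had 0.78 ± 0.10 and 1.11 ± 0.12. Of the members that did not pass, Mx2 and Cxcl10 had deviations of 1.93 and 1.99 and Ifit2 had 0.18. Irf1 and Tap1, which interferon gamma also raises in many cells, did not differ between wildtype and knockout past the threshold. Irf1 measured 160 and 136 in wildtype, 219 and 238 in heterozygous, and 162 and 142 in knockout (deviation 0.61 ± 0.13, adjusted p = 0.0191). Its call was lost without heterozygous replicate 1 or 2 (adjusted p = 0.155 and 0.256) or wildtype replicate 2 (0.0927), and that on Tap1 (0.57 ± 0.10) without heterozygous replicate 1 or 2 (0.174 and 0.0728).

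Interferon-activated complexes that hold Stat2 and Irf9 bind a promoter element of direct repeats. The 250 bases before the start of 5 interferon response genes above both groups, from RefSeq on GRCm38.p6, are shown because they hold the letters GAAANNGAAA on either strand, in capitals. The gene counts were made on mm9, and the sequences were matched by gene symbol.
Ifit1 (chr19:34640639-34640888, plus strand): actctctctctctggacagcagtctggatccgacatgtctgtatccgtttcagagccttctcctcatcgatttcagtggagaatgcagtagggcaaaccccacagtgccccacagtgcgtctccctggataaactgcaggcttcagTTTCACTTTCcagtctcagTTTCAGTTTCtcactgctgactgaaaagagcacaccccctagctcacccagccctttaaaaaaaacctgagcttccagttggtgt
Isg15 (chr4:156200819-156201068, minus strand): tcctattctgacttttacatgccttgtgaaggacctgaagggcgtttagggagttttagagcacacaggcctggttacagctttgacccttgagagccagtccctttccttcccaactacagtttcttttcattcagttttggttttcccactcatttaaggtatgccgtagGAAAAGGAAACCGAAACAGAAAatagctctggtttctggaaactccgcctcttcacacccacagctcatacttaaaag
Trim30a (chr7:104465194-104465443, minus strand): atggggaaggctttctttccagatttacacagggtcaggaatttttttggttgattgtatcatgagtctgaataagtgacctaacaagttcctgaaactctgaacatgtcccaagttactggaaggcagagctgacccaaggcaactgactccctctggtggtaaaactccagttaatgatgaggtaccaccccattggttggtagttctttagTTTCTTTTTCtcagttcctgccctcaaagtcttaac
Bst2 (chr8:71537473-71537722, minus strand): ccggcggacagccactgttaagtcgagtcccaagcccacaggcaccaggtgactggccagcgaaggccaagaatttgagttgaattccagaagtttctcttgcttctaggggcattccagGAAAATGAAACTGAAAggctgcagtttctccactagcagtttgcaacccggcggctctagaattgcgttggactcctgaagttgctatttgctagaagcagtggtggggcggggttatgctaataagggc
Gbp3 (chr3:142559794-142560043, plus strand): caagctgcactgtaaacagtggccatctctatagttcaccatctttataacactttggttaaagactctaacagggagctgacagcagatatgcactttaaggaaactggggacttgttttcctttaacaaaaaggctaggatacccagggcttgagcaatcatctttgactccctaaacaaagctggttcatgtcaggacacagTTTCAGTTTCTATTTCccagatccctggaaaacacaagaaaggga

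Isg15 held 3 overlapping matches that began 78, 72 and 66 bases before the start, and Ifit1 held 2 that began 104 and 85 bases before it. Bst2 and Gbp3 held 2 overlapping matches each and Trim30a held 1. Trim30a, a restrictor of inflammatory signalling in the mouse, measured 312 and 285 in wildtype, 622 and 721 in heterozygous, and 112 and 143 in knockout, and Gbp3, a guanylate-binding protein, measured 90.6 and 64.8, then 153 and 162, then 39.0 and 30.6. Both were highest in the heterozygous libraries. Of 25 interferon response genes above both groups, 20 had a promoter entry and 10 of these held a match. The motif was in 38.7% of 31 promoter windows of the interferon list, in 9.03% of 465 windows of genes above both groups, in 2.15% of 93 windows of genes below both, and in 2.66% of 12050 windows of all genes tested. Apart from the interferon list, genes above both groups had it in 7.26% of 441 windows. These are matches of letters, with no measurement of binding.

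Inflammatory cytokines and chemokines were mostly above the midpoint: of 33 tested, 20 were above it, 1 below and 12 did not pass, and 11 were above both groups. Of all genes tested, 6.87% were above the midpoint and 3.28% above both groups. Of the 33, 24 had 10 or more scaled counts in all 6 libraries. In a fit of such genes alone, 14 of the 24 were above the midpoint and 9 above both groups. The median deviation of the 33 was 1.14. The chemokine Ccl6 measured 158 and 174 in wildtype, 692 and 756 in heterozygous, and 31.7 and 36.7 in knockout (deviation 3.24 ± 0.13), and Ccl9, of the same cluster on chromosome 11, measured 344 and 394, then 1101 and 1143, then 134 and 120 (deviation 2.37 ± 0.11). Ccl3 and Ccl4, macrophage inflammatory proteins, had deviations of 2.20 ± 0.24 and 2.15 ± 0.17. The heterozygous libraries were highest in all 4 of these genes.

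Ligands that draw monocytes took another shape. Ccl2 measured 2180 and 2035 in wildtype, 2711 and 2954 in heterozygous, and 703 and 549 in knockout, and Ccl7 measured 893 and 953, then 952 and 986, then 189 and 247. Heterozygous libraries thus lay near wildtype and far above knockout, with deviations of 1.31 ± 0.11 and 1.11 ± 0.12, and neither gene was called above both groups. Icam1, an adhesion protein for leukocytes, was higher in knockout than in wildtype and highest in heterozygous, at 327 and 309, then 990 and 937, then 616 and 579 (deviation 1.14 ± 0.09). Ptgs2, which encodes the inducible cyclooxygenase COX-2, was the member below the midpoint, at 38884 and 39079 in wildtype, 17017 and 18484 in heterozygous, and 19986 and 22486 in knockout (deviation -0.70 ± 0.08, adjusted p = 0.000532). Cytokines Il6 and Il33 had deviations of 0.61 and 1.30 that did not pass. The macrophage sum was highest in the same libraries as these chemokines, and its part was not tested. Members above the midpoint numbered 13 and 12 without heterozygous replicate 1 and 2, and members above both groups 4 and 7, with 7 and 6 without wildtype replicate 1 and 2.

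Insulin-like growth factors lay above both groups. Igf2 (chromosome 7), a fetal growth factor expressed from the paternal allele, measured 1774 and 1796 in wildtype, 11559 and 11878 in heterozygous, and 3686 and 2395 in knockout (deviation 2.35 ± 0.14, adjusted p = 1.74e-05). H19, the maternally expressed noncoding RNA beside it that shares its enhancers, measured 2149 and 2153, then 8922 and 8424, then 4364 and 2681 (deviation 1.68 ± 0.16, adjusted p = 0.00017). Both were highest in the heterozygous libraries, and the knockout pair lay above the wildtype pair. Igf1 measured 1192 and 1256, then 2615 and 2801, then 762 and 722 (deviation 1.5 ± 0.08), and the binding protein Igfbp3, which prolongs the life of both factors, measured 1482 and 1446, then 2316 and 2206, then 1003 and 934 (deviation 0.93 ± 0.08). In these genes the knockout pair was lowest.

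Of the 13 genes of the IGF axis, 3 passed (23.1%, beside 9.57% of all genes tested), all above both groups. The receptors Igf1r, Insr and Igf2r had deviations of -0.26, -0.12 and -0.10 that did not pass. The median of the 13 was 0.06. Of 19 imprinted growth genes, 2 were above the midpoint, 3 were below it and 14 did not pass (26.3% called). The members above were Igf2 and H19, and the list median was -0.10. Peg10, a retrotransposon-derived imprinted gene, was below both groups, at 1117 and 1119, then 558 and 638, then 924 and 970 (deviation -0.78 ± 0.09). Grb10 and Plagl1, an adaptor that restrains growth factor receptors and a zinc finger regulator of growth, had deviations of -0.34 and -0.49, without differing from both groups. Grb10 lost its call without heterozygous replicate 1 or 2 (adjusted p = 0.315 and 0.138) or wildtype replicate 1 or 2 (0.102 and 0.102), and Plagl1 in the same libraries (0.264, 0.261, 0.125 and 0.0545), and both without the mean trend (0.0915 and 0.135). Imprinted genes below the midpoint numbered 1 without any wildtype or heterozygous library and 6 without either knockout library. IGF axis genes above it numbered 5 without knockout replicate 1.

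Genes of fibroblasts and the adventitia, the outer coat of the artery, were above the midpoint in 10 of 20, with none below it. This was 50% of the list, beside 6.87% of all genes tested. The median was 0.69, and 6 were above both groups, beside 3.28% of all genes tested. Their sum was 48382 and 48151 in wildtype, 58383 and 58233 in heterozygous, and 61491 and 57178 in knockout, so as a sum the heterozygous libraries lay within the knockout range. Lum, the collagen-binding proteoglycan lumican, measured 128 and 140, then 535 and 533, then 122 and 144 (deviation 1.99 ± 0.12, adjusted p = 1.74e-05). Dpt, or dermatopontin, measured 75.1 and 76.3, then 259 and 249, then 67.1 and 63.5 (deviation 1.84 ± 0.13). These genes were high in the heterozygous libraries and alike in the other groups. Dcn, or decorin, measured 1164 and 1222, then 2237 and 2290, then 646 and 535 (deviation 1.43 ± 0.10). Pdgfra, a growth factor receptor of fibroblasts, measured 427 and 460, then 1423 and 1296, then 1766 and 1510, near knockout (deviation 0.67 ± 0.10), and this call was lost without heterozygous replicate 1 (adjusted p = 0.0741). Members above the midpoint numbered 6 without that library.

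In the extracellular matrix, genes left the midpoint in both directions. Of 24 elastic fibre genes 5 were above it and 3 below it (33.3% called), and the median was 0.15. Of 29 interstitial collagens and small proteoglycans 10 were above it and 4 below it (48.3%), and the median was 0.10, beside 9.57% called among all genes. The fibre-associated Fbln1 measured 325 and 317, then 905 and 797, then 363 and 307 (deviation 1.37 ± 0.11), and Mfap4 measured 449 and 420, then 1011 and 974, then 392 and 285 (deviation 1.38 ± 0.13). Only the heterozygous libraries were high. Eln, elastin itself, measured 119 and 116, then 109 and 84.2, then 58.0 and 19.6, and did not pass (deviation 0.59 ± 0.35, adjusted p = 0.418). Mgp, an inhibitor of arterial calcification, measured 23602 and 23608, then 52817 and 48923, then 27032 and 28430 (deviation 0.99 ± 0.07, adjusted p = 4.57e-05). Without heterozygous replicate 1 or 2, 3 and 3 elastic fibre genes and 5 and 4 collagen and proteoglycan genes were above the midpoint. Without knockout replicate 1 or 2, 12 and 8 elastic fibre genes were above it and 7 and 7 below, and without wildtype replicate 1 or 2, 1 and 2 elastic fibre genes and 2 and 2 of the collagen list were below. The collagen list had 8 below without knockout replicate 2, and 1 and 0 without heterozygous replicate 1 and 2; elastic fibre genes below were 0 and 0 there.

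Among 28 matrix proteases and inhibitors, 8 were above the midpoint and 1 below (32.1% called, beside 9.57% of all genes tested). The median was 0.24, and 5 were above both groups, beside 3.28% of all genes tested. Mmp13, a collagenase of cartilage and bone, measured 357 and 349, then 1092 and 1154, then 296 and 417 (deviation 1.67 ± 0.13, adjusted p = 5.97e-05). Mmp12, the elastase of macrophages, measured 1142 and 1156, then 1584 and 1660, then 276 and 297 (deviation 1.5 ± 0.08). Mmp9, a gelatinase that leukocytes also make, measured 94.4 and 76.3, then 173 and 177, then 13.6 and 2.44 (deviation 2.83 ± 0.46), and was lost without heterozygous replicate 1 or 2 (adjusted p = 0.0834 and 0.0846). Mmp12 and Mmp9 thus had the order of the macrophage markers. In Mmp13 the heterozygous libraries were highest, and the wildtype values lay between the knockout values. The macrophage sum moved in the order of Mmp12 and Mmp9, and its part was not tested. Without heterozygous replicate 1 or 2, 4 and 4 members were above the midpoint, and without knockout replicate 1 or 2, 15 and 14. Members above both groups numbered 2 without any wildtype or heterozygous library and 8 without either knockout library.

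Cartilage genes, which the series singles out, showed both additive and non-additive members. Col2a1, the main collagen of cartilage, measured 61.9 and 60.6 in wildtype, 153 and 135 in heterozygous, and 272 and 236 in knockout, and its deviation of 0.20 ± 0.14 did not pass (adjusted p = 0.491). Comp, a cartilage matrix protein, measured 5.42 and 6.27, then 63.0 and 64.9, then 139 and 115. Its heterozygous libraries were nearer knockout on the log2 scale (deviation 1.14 ± 0.21, adjusted p = 0.00764) but at -0.053 against the arithmetic midpoint, and the call was lost without heterozygous replicate 1 or 2 (0.111 and 0.122).

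Prelp, a proteoglycan of cartilage and basement membranes, was above both groups at 420 and 457, then 1684 and 1804, then 1331 and 818 (deviation 1.36 ± 0.17, adjusted p = 0.000706). Of 14 cartilage matrix genes, 4 were above the midpoint (28.6%, beside 6.87% of all genes tested), none was below and the median was 0.10. That count was 1 and 2 without heterozygous replicate 1 and 2. Sox9, the transcription factor that cartilage requires, measured 231 and 236, then 214 and 188, then 464 and 268 (deviation -0.52 ± 0.19, adjusted p = 0.161). Of 20 chondrogenic transcription factors 2 were above the midpoint and 3 below (25% called, beside 9.57% of all genes tested). Their median was 0.10 and ran from -0.06 to 0.14 over the alternatives. Sox6, a partner of Sox9, measured 17.0 and 21.9, then 39.2 and 44.5, then 250 and 259, so that heterozygous was nearer wildtype (deviation -0.75 ± 0.18, adjusted p = 0.0316). That call was lost without heterozygous replicate 1 or 2 (0.31 and 0.163), without wildtype replicate 2 (0.11) and under other settings. Without heterozygous replicate 1 or 2 the factors above the midpoint were 0 and 1 and those below it 1 and 0. Without knockout replicate 1 or 2 they were 5 and 4 above and 4 and 8 below, and without either wildtype library 1 was above.

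Wnt signalling members moved in both directions. Of 37 tested, 10 were above the midpoint and 8 below (48.6% called, beside 9.57% of all genes tested), and the median was 0.01. Secreted antagonists were among those above. Sfrp1, which binds Wnt ligands, measured 3334 and 3364, then 7620 and 7418, then 2224 and 1864 (deviation 1.53 ± 0.09, adjusted p = 1.18e-05), and Frzb, of the same family, measured 458 and 422, then 630 and 607, then 291 and 279 (deviation 0.80 ± 0.10). Nkd2, an intracellular inhibitor of the pathway, had a deviation of 1.01 ± 0.13. Ligands were among those below. Wnt5a, a ligand of noncanonical signalling, measured 2908 and 3046, then 1669 and 1635, then 2651 and 2794 (deviation -0.78 ± 0.07, adjusted p = 0.000161), and Wnt10b measured 65.0 and 63.8, then 21.0 and 21.6, then 65.3 and 50.1 (deviation -1.47 ± 0.20). In both ligands the heterozygous libraries were below all others. R-spondins, which raise the level of Wnt receptors, went both ways, with Rspo3 at 409 and 462, then 890 and 897, then 662 and 692 (deviation 0.72 ± 0.09), and Rspo1 at 55.0 and 57.5, then 14.6 and 15.6, then 38.1 and 28.1 (deviation -1.45 ± 0.23). The call on Rspo1 was lost without heterozygous replicate 1 (adjusted p = 0.0621). Members below the midpoint numbered 1 and 2 without heterozygous replicate 1 and 2, and 3 and 2 without wildtype replicate 1 and 2. Axin2, a common target of canonical Wnt signalling, had a deviation of 0.37 that did not pass.

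The 11 genes described from the lowest deviations ran from -1.93 to -1.41 and were smaller in size than the 11 highest. Vat1l, related to a protein of synaptic vesicles, measured 279 and 290 in wildtype, 65.7 and 52.9 in heterozygous, and 175 and 189 in knockout (deviation -1.93 ± 0.14). Heterozygous libraries were lowest, and the knockout pair was below wildtype. Sema3a, a secreted guidance cue for axons and endothelial cells, measured 1847 and 1955, then 751 and 822, then 2458 and 2599 (deviation -1.48 ± 0.08, adjusted p = 1.18e-05). Xirp2, an actin-binding protein of striated muscle, had a deviation of -1.85 ± 0.25, and the apical polarity gene Crb2 of -1.65 ± 0.18.

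Of these 11, 9 differed from both groups. Stmn2, a tubulin-binding protein of neurons, and Prl2c3, a placental prolactin relative with near-identical copies, were high in knockout and like wildtype in heterozygous, and neither passed against wildtype (adjusted p = 0.650 and 0.158). Stmn2 measured 68.1 and 64.8, then 52.9 and 63.7, then 625 and 563. Calls on Hmgcll1, a lyase of ketone body synthesis, and the histone gene Hist1h2ab were lost without heterozygous replicate 1 (adjusted p = 0.0575 and 0.146), and that on Hist1h2ab, whose copies are alike, also without replicate 2 (0.0505).

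Several genes known from mesothelium, the lining of the body cavities that also covers organs, lay below both groups. Msln, mesothelin, measured 653 and 707, then 265 and 298, then 623 and 651 (deviation -1.22 ± 0.10, adjusted p = 6.07e-05), and Upk3b measured 1068 and 1047, then 376 and 435, then 871 and 667 (deviation -1.15 ± 0.12). Lrrn4, a leucine-rich membrane protein also known from mesothelial cells, measured 771 and 822, then 248 and 304, then 932 and 727 (deviation -1.56 ± 0.13). The heterozygous libraries did not overlap the others in any of these. Of the 12 tested markers of epithelial, mesothelial and adipose cells, 6 were below the midpoint and 2 above, beside 2.70% and 6.87% of all genes. Of the 12, 3 were below both groups and 1 above both, beside 0.734% and 3.28% of all genes. The median was -0.71. The list summed to 4412 and 4517 in wildtype, 2838 and 2925 in heterozygous, and 4284 and 3950 in knockout.

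Wt1, a transcription factor of the mesothelium, took another shape, at 441 and 440, then 195 and 201, then 212 and 156, level with knockout (deviation -0.52 ± 0.14, adjusted p = 0.0462). That call was lost without heterozygous replicate 1 or 2 (0.359 and 0.287) or wildtype replicate 1 or 2 (0.163 and 0.164), and under other settings. The members above the midpoint were Cebpa, a regulator of adipose and myeloid cells (1.03 ± 0.12), and the fatty acid carrier Fabp4 (0.84 ± 0.14), whose call was lost without heterozygous replicate 1 or 2 (0.106 and 0.0738). Members below the midpoint numbered 3 without heterozygous replicate 2, and members above it 1 without either heterozygous library.

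Of 39 contractile smooth muscle genes tested, 6 were above the midpoint, 3 below it and 30 did not pass (23.1% called, beside 9.57% of all genes), and the median was 0.05. Acta2, smooth muscle actin, measured 120179 and 111134 in wildtype, 104382 and 103199 in heterozygous, and 90704 and 79074 in knockout (deviation 0.07 ± 0.09, adjusted p = 0.745). Myh11, smooth muscle myosin, measured 3851 and 3512, then 2193 and 2222, then 1757 and 1653 (deviation -0.18 ± 0.08, adjusted p = 0.226). In both the heterozygous pair was between the other pairs. Aoc3, an amine oxidase of the smooth muscle surface, was above both groups at 237 and 257, then 470 and 440, then 157 and 130 (deviation 1.27 ± 0.12, adjusted p = 0.000174). Without heterozygous replicate 1 or 2, 3 and 2 members were above the midpoint and 1 and 1 below. Without knockout replicate 1 or 2, 14 and 9 were above and 3 and 6 below.

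Several genes left the midpoint without their heterozygous libraries lying beyond all others, and these fell into a pair of shapes. In the first, the heterozygous mean was nearer knockout. Des, the intermediate filament desmin, measured 5720 and 5098 in wildtype, 974 and 944 in heterozygous, and 924 and 814 in knockout (deviation -1.17 ± 0.09, adjusted p = 4.73e-05). Emcn, an endothelial sialomucin, measured 172 and 171, then 20.1 and 12, then 9.06 and 11 (deviation -1.39 ± 0.26, adjusted p = 0.0088), and Col7a1, the collagen of anchoring fibrils, measured 509 and 495, then 188 and 167, then 198 and 176 (deviation -0.78 ± 0.11). Each heterozygous pair was far below wildtype and beside knockout.

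Kcnmb1, a subunit of the smooth muscle potassium channel, measured 149 and 151, then 40.1 and 34.9, then 29.0 and 26.9 (deviation -0.78 ± 0.18, adjusted p = 0.0223), and Loxl2, a crosslinking enzyme of collagen and elastin, measured 29146 and 28841, then 9783 and 10197, then 6652 and 6300 (deviation -0.46 ± 0.07). Leaving out heterozygous replicate 2 lost the calls on Kcnmb1 (0.239), Loxl2 (0.06), Emcn (0.127) and Col7a1 (0.0656), and leaving out heterozygous replicate 1 lost those on Kcnmb1 (0.127) and Loxl2 (0.0978). Leaving out wildtype replicate 1 or 2 lost Emcn (0.0612 and 0.0596) and Kcnmb1 (0.115 and 0.119), and DESeq2 also lost Kcnmb1 (0.124).

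In the second shape the heterozygous mean was nearer wildtype. Mylk, the kinase that activates smooth muscle myosin, measured 5136 and 4974 in wildtype, 4845 and 4927 in heterozygous, and 2125 and 1811 in knockout (deviation 0.63 ± 0.08, adjusted p = 0.00115). Col15a1, a basement membrane collagen, measured 489 and 476, then 500 and 470, then 102 and 95.3 (deviation 1.15 ± 0.10, adjusted p = 0.00013). Heterozygous and wildtype values overlapped or nearly touched, and knockout was far below. Fap, a membrane protease of activated fibroblasts, measured 136 and 132, then 137 and 135, then 38.1 and 40.3 (deviation 0.89 ± 0.14), and Mmp16, a membrane-bound protease, rose in knockout alone, at 334 and 328, then 334 and 352, then 810 and 783 (deviation -0.58 ± 0.09). Calls on Fap and Mmp16 were lost without heterozygous replicate 1 (adjusted p = 0.0832 and 0.0932) or replicate 2 (0.0738 and 0.0575).

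**Figure D4:**
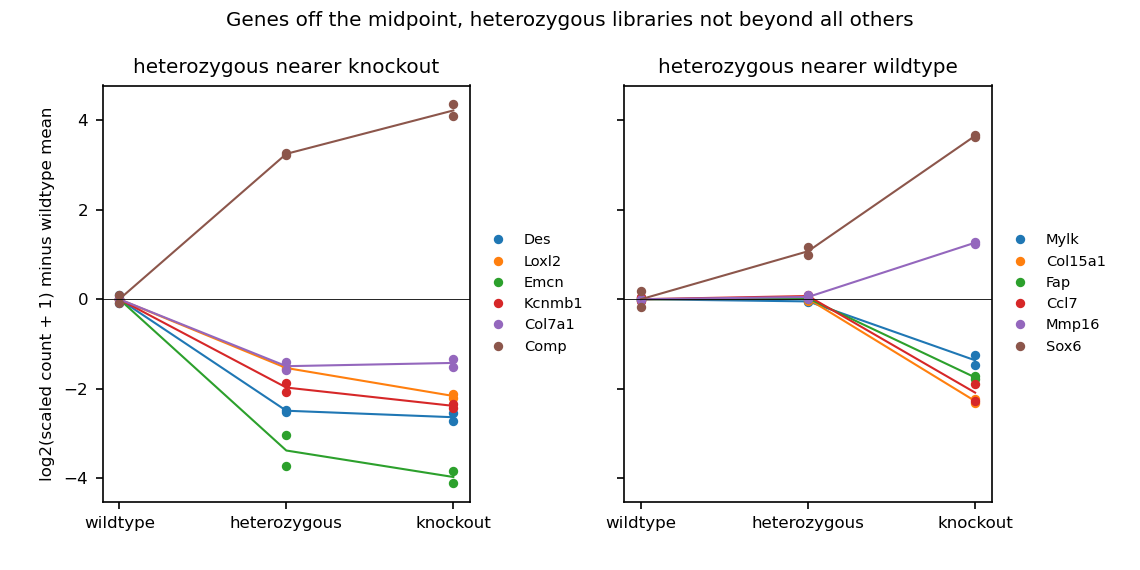
Log2(scaled count + 1) minus the wildtype mean (y axis) for genes off the midpoint whose heterozygous libraries did not lie beyond all others, with 1 point per library and lines through the group means. In the left panel heterozygous means lie nearer knockout (Des at 974 and 944 scaled counts, against 924 and 814), and in the right panel nearer wildtype (Mylk at 4845 and 4927, against 5136 and 4974).

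Of 30 Notch ligands, receptors and modifiers, 5 were above the midpoint and none was below (16.7% called, beside 9.57% of all genes), and the median was 0.08. None differed from both groups in the same direction, beside 4.02% of all genes, and 1 did with the replicate block. Jag1 was among the 5. Lfng, a glycosyltransferase that tunes which ligands Notch receptors answer to, measured 184 and 182, then 278 and 275, then 171 and 131 (deviation 0.74 ± 0.14, adjusted p = 0.00783), and Rbpj, the DNA-binding partner of cleaved Notch, measured 2886 and 2860, then 3487 and 3739, then 2985 and 3160 (deviation 0.28 ± 0.07, adjusted p = 0.0447). Heterozygous libraries were highest in both genes.

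Notch3, the receptor most used by arterial smooth muscle, measured 387 and 322, then 421 and 403, then 346 and 251 (deviation 0.35 ± 0.15, adjusted p = 0.207). Of 15 Notch targets 1 was above the midpoint and 1 below (13.3% called, beside 9.57% of all genes tested). With the replicate block, 4 were below. The member below in the main fit was the transcription factor Hey2, at 82.1 and 93, then 42 and 36.1, then 69.8 and 57.4 (deviation -0.92 ± 0.18, adjusted p = 0.012). Hes1 had a deviation of -0.22 ± 0.10 (adjusted p = 0.251). Calls on Lfng, Rbpj and Hey2 were lost without heterozygous replicate 1 (0.134, 0.229 and 0.0846) or replicate 2 (0.119, 0.455 and 0.169), those on Rbpj and Hey2 without wildtype replicate 2 (0.193 and 0.0688), and that on Rbpj without wildtype replicate 1 (0.178), with edgeR (0.0504) and under other settings. With either heterozygous library left out, none of the 30 passed, with either wildtype library left out 2 did, and without knockout replicate 1 there were 10 above the midpoint. Notch targets below it numbered 5 and 6 without knockout replicate 1 and 2, and 0 without either heterozygous library or wildtype replicate 2.

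Other signalling and state lists had medians from -0.20 for p53 targets to 0.19 for immediate early genes. The quartiles of all genes tested were -0.13 and 0.15. Called shares were 23.8% for TGF-beta and BMP, 22.7% for FGF, 14.8% for immediate early, 29.4% for p53 and 10% for hypoxia genes. Among all genes tested the share was 9.57%. The TGF-beta and BMP list had 42 tested genes, of which 8 were above the midpoint and 2 below, with a median of 0.03. Of 22 genes of FGF and receptor tyrosine kinase feedback 3 were above it and 2 below, with a median of -0.02 and the phosphatase Dusp4 lowest, at 4501 and 4199, then 1945 and 2144, then 2639 and 2305 (deviation -0.68 ± 0.09, adjusted p = 0.000969). Of 27 immediate early genes, 4 were above it, led by the stress regulator Atf3 at 132 and 107, then 237 and 203, then 44.4 and 59.9 (deviation 1.48 ± 0.18). Heterozygous libraries were thus lowest for Dusp4 and highest for Atf3. Of 30 hypoxia and glycolysis genes 1 was above and 2 below. The glucose transporter Slc2a3, lowest of these, measured 252 and 257, then 117 and 115, then 176 and 224 (deviation -0.95 ± 0.13). Of 17 p53 targets 1 was above and 4 below, among them the cell death gene Pmaip1 at 6195 and 6628, then 3913 and 3860, then 5529 and 6228 (deviation -0.66 ± 0.08). With the replicate block, 9 immediate early genes and 2 hypoxia genes were above the midpoint. Without heterozygous replicate 1 or 2, 0 and 2 TGF-beta and BMP genes were above the midpoint, 1 and 1 immediate early genes were above it, and 1 and 1 p53 targets were below it. Without wildtype replicate 1 or 2, 1 and 1 p53 targets were below it, 2 and 2 immediate early genes were above it, and 4 and 6 TGF-beta and BMP genes were above it. Without knockout replicate 1 or 2, 14 and 10 TGF-beta and BMP genes and 15 and 10 immediate early genes were above it, and 7 and 7 p53 targets and 7 and 11 TGF-beta and BMP genes were below it. FGF genes above and hypoxia genes above fell to 0 without heterozygous replicate 2, and each numbered 4 without either knockout library.

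Markers of other cells were few. Of 21 listed endothelial genes, 11 were tested, 2 were above the midpoint and 2 below, and Kdr, the main receptor for VEGF, measured 362 and 364, then 527 and 604, then 1153 and 1017 (deviation -0.15 ± 0.10, adjusted p = 0.471). Neural and Schwann markers numbered 7 tested of 20, with 2 below the midpoint and a median of -0.82. Skeletal and cardiac muscle markers numbered 4 tested of 19, with 2 below it, including skeletal actin Acta1 at 8551 and 7273, then 4961 and 4801, then 7448 and 6943 (deviation -0.63 ± 0.09). The call on Acta1 was lost without heterozygous replicate 2 (adjusted p = 0.0539). Called shares were 36.4% for endothelial, 28.6% for neural and 50% for muscle markers, beside 9.57% of all genes tested. Tendon genes had 2 above the midpoint of 7 (28.6%), and hypertrophic cartilage and bone genes had 4 above and 2 below of 15 (40%). Endoplasmic reticulum and amino acid stress genes had 1 above and 1 below of 35 (5.71%). These small counts changed with the library left out, from 1 to 4 above for tendon, 2 to 7 above for hypertrophic cartilage and bone, 0 to 8 below for the stress list, 1 to 4 below for neural markers, 0 to 2 below for muscle markers, and 0 to 2 in each direction for endothelial genes.

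Proliferation genes had 1 below the midpoint of 39 (2.56%), near the 2.70% of all genes tested. It was the cyclin Ccne1 (deviation -0.44 ± 0.09, adjusted p = 0.0106), whose call was lost whenever a heterozygous or wildtype library was left out (deviations -0.50 to -0.38). Those below numbered 4 with the replicate block, and 8 and 10 without knockout replicate 1 and 2. Mki67 measured 4045 and 4218, then 3787 and 4481, then 5511 and 4585. Wildtype and heterozygous libraries overlapped, and the knockout pair was above them. In 7 lists, ribosomal protein, nuclear oxidative phosphorylation, mitochondrial, Hox, heat shock, cholesterol synthesis and Hedgehog genes, none of 152 tested members passed limma's test. Among all genes tested, 9.57% passed. Deviations of the 152 ran from -0.63 to 0.44. Of the 152, 5 had an unadjusted p under 0.05 and edgeR called 0. DESeq2 called 1, and the fit with the replicate block called 2, of cholesterol synthesis and heat shock. With knockout replicate 1 or 2 left out, 13 and 58 passed.

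**Figure D5:**
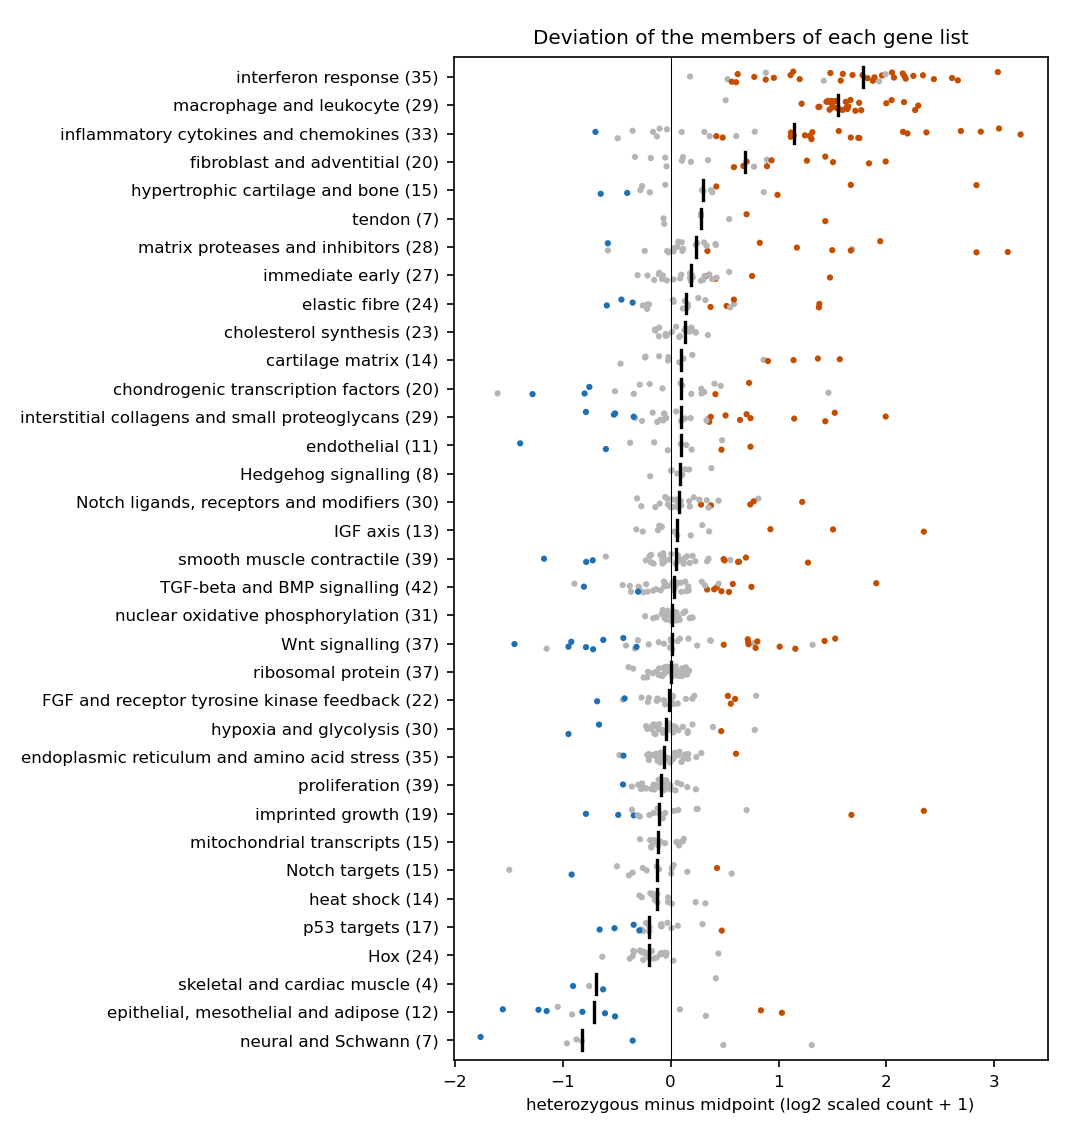
Deviation from the midpoint (x axis, log2 scaled count + 1) of each tested member of 35 gene lists, with the number tested in brackets. Orange and blue points passed limma's test above and below the midpoint, grey points did not pass, and black bars are list medians, which run from 1.78 for the interferon response to -0.82 for neural and Schwann markers.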

How the data were processed

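The deposited table gave a signal value per gene and library, which held read counts after the authors' division by a library-wide size factor: within 0.001 of a read, all values were whole multiples of 1 step per library (0.774 to 1.22 scaled units). The submitters' processing notes name build mm9 and the tools DESeq 1.16.0, HTSeq 0.5.4p3 and TopHat2 2.0.4, and their roles, strand setting and annotation release are not given in the sources used here, so near-identical, overlapping and antisense genes are uncertain. A deposited column of gene length, of unit other, gave no value printed here. RNA (500 ng, per the labels) had gone into each library.

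Values were tested as log2(value + 1), which understates changes of low genes, with limma 3.58.1 (R 4.3.3) on all 6 libraries in 1 fit of 3 group means with a mean trend (3 residual and 6.11 prior degrees of freedom), two-sided, with Benjamini-Hochberg adjustment over 15116 genes. Map4k1 (10.04) and Als2cr12 (9.97) lay just inside and outside the minimum of 10, by their second highest library, and Eps8l2 (adjusted p = 0.0499851) and Rgs10 (0.0501483) beside the threshold of 0.05. Recovered reads were tested with edgeR 4.0.16 and DESeq2 1.42.0 as alternatives. The procedure was tested on simulated data in which knockout and wildtype did not differ and each gene had the same spread in every group. That simulation does not cover genes that differ between knockout and wildtype, or a knockout pair that scatters more. Same-numbered libraries deviated together (r = 0.168, 0.198 and 0.136 across genes for the 3 pairs of groups), so a fit with the replicate number as a block was run as a paired alternative; replicate 1 was the deeper library in every group. The members, the 36 gene lists and the tests were chosen with earlier results of these data known. Named genes are Jag1, the 12 highest and 12 lowest deviations that passed with both heterozygous libraries outside the others and a group mean of 50 or more (predicted genes left out), up to 4 members per list with the smallest p, and further members that passed. The group mean is that of the highest group. Sox9, Acta2, Myh11, Col2a1, Notch3, Hes1, Mki67, Eln, Kdr, list members that did not pass and the genes of the last section were added after their values were seen. Symbols used by more than 1 gene numbered 314. Some genes that the rule names are not reported here.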

Additional observations from a re-analysis of the deposited data

Results flagged for a closer look

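Genes of chromosome X were kept out of the main tests above, but the summed levels of the marker lists took in all chromosomes. Of the X-linked genes, 660 passed the minimum on scaled counts. When the same limma fit was run with chromosomes X and Y kept, 67 X-linked genes (10.2%) passed the deviation test, a share close to the 9.57% of the other genes. They are listed because they lie outside the main measurement. In 36 of them both heterozygous libraries lay above the other 4, and in 24 both lay below.

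Egfl6, which encodes a secreted matrix protein, measured 9.29 and 8.36 in wildtype, 98.5 and 74.5 in heterozygous, and 12.7 and 3.67 in knockout. Its wildtype values and the lower of its knockout values were under the minimum on scaled counts. Egfl6 thus entered the fit only because its heterozygous libraries were high, and its values are given as a description. Cfp, the complement regulator properdin, measured 389 and 298, then 816 and 760, then 102 and 91.7, and Cybb, an oxidase subunit of phagocytes, measured 671 and 677, then 1294 and 1360, then 194 and 215. These libraries stood in the order of the macrophage markers for Cfp and Cybb. Among those below, the phosphatase Dusp9 measured 190 and 186, then 80.3 and 75.7, then 183 and 150. Sex of the embryos is not labelled, and its part in these values was not tested.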

How the results depend on the processing

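With 2 libraries a group, the counts depend most on which library is left out: genes above the midpoint numbered 430 to 2233 and below it 87 to 1981, those that passed with heterozygous libraries outside the others 424 to 1682 and 78 to 1288, and those differing from both groups 111 to 937 above and 25 to 440 below. A group left with 1 library is assumed to vary like the others. Without the mean trend, genes below numbered 266, 222 and 65 by the 3 criteria. The share of genes whose heterozygous mean was outside both others was 61.3% with no filter on low values, against 63.5%. Against the arithmetic midpoint, Jag1 turned to -0.86 and Comp to -0.053 on the log2 scale, and 71 of 264 named genes moved by more than the SE of their deviation without turning. The paired fit with the replicate block gave 1209 genes above the midpoint and 568 below, 1105 and 442 with heterozygous libraries outside, and 608 and 155 differing from both groups, and it changed no call on 264 named genes. Of these, 155 and 156 kept their side of the threshold without heterozygous replicate 1 and 2, 221 without the mean trend, 243 with no filter, 263 with edgeR and 248 with DESeq2; the causes were not tested. Depth limits the precision of low genes.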

Other observations

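Further genes, chosen after their values were seen, extend the acute phase and complement group. Ptx3, a secreted pattern recognition protein, measured 194 and 187 in wildtype, 848 and 824 in heterozygous, and 196 and 257 in knockout (deviation 2.01 ± 0.13, limma adjusted p = 1.92e-05). Cp, the copper carrier ceruloplasmin, measured 69.7 and 108, then 379 and 418, then 60.7 and 47.7 (2.53 ± 0.19). Only the heterozygous libraries were high in both. Kng1, the kininogen precursor of bradykinin, had a deviation of 2.31 ± 0.20, and the complement proteases C1s and C1ra, which have close copies, had 1.41 ± 0.09 and 1.33 ± 0.14. Clu, or clusterin, had 1.26 ± 0.14. Siglec1, the sialic acid receptor of macrophages, measured 157 and 137, then 432 and 400, then 53.5 and 40.3 (2.32 ± 0.15), and the scavenger receptor Marco measured 12.4 and 14.6, then 95.8 and 80.6, then 9.06 and 11 (2.82 ± 0.26), so that knockout was far below wildtype for the first and beside it for the second.

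Other genes, also chosen after their values were seen because they lay below both groups, included some with roles in adhesion and guidance. Cd44, the hyaluronan receptor, measured 25587 and 24723 in wildtype, 15488 and 16054 in heterozygous, and 25387 and 24992 in knockout (deviation -0.67 ± 0.07, limma adjusted p = 0.000277). Ncam1, the neural cell adhesion molecule, measured 7184 and 6949, then 3888 and 4013, then 8225 and 6074 (-0.84 ± 0.11), and Cdh2, or N-cadherin, measured 6015 and 5820, then 3689 and 3839, then 7755 and 6404 (-0.78 ± 0.09). The heterozygous libraries did not overlap the others in these 3 genes. Flrt2, an adhesion protein and repulsive guidance ligand, had -0.99 ± 0.08, and Nrg1, the ERBB receptor ligand, had -0.76 ± 0.10. Upk1b, a uroplakin, measured 1129 and 1207, then 338 and 393, then 747 and 705 (-1.33 ± 0.10), and the keratin Krt7 had -1.12 ± 0.16.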
